A study of Mus musculus with 17 samples.

Results

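The Eph receptors, their ephrin ligands, the netrins and the netrin receptors were followed in nuclei of the stressed mouse cortex. Members were the protein-coding genes named Epha, Ephb, Efna, Efnb or Ntn with a number, together with Ntng1, Ntng2, Dcc, Neo1 and Unc5a to Unc5d. The rule uses names alone, and it found 33 of the 36293 genes in the bulk tables. The same 33 symbols were present among the 37608 genes of the sNucDrop-seq tables. They fell into 6 role groups of 9 EphA receptors, 5 EphB receptors, 5 ephrin-A ligands, 3 ephrin-B ligands, 5 netrin ligands and 6 netrin receptors.

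Eph receptors are the largest family of receptor tyrosine kinases, and ephrins are ligands held on the surface of the neighboring cell. Ephrin-A ligands are tied to the membrane by a lipid anchor and ephrin-B ligands cross it, so both partners can signal when cells touch. Netrins are laminin-related guidance cues, which attract axons through Dcc and Neo1 and repel them through the Unc5 receptors. In the adult cortex the same molecules are known for their roles at synapses, dendritic spines and the contacts between neurons and glia.

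Male mice labelled C57BL/6 (C57Bl/6J in the study's methods) were exposed to chronic unpredictable stress (CUS), in which 3 changing stressors were delivered per day over 12 days from an age of 9 to 10 weeks. Unstressed controls were kept apart from the stressed mice and had only daily handling. Bulk nuclear RNA-seq covered the medial prefrontal cortex (mPFC) of 4 control and 5 CUS mice labelled postnatal day 90, and sNucDrop-seq, a droplet method that reads RNA of single nuclei, covered neocortex of 4 control and 4 CUS mice labelled day 80. Tissue for sNucDrop-seq was taken 24 h after the last stressor. The bulk mice also went through behavioral tests after the stress, and by the study's methods their tissue was taken 24 h after the last of these tests, whereas the labels give 24 h after the last stressor for them too. Each library was 1 mouse, and no genetic change was named for any group.

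Bulk libraries held 26188825 to 30525015 reads on genes per mouse. After filtering, 26698 of 40000 barcodes were kept as nuclei, with 1935 to 4235 nuclei and 4699542 to 12477099 UMIs (unique molecular identifiers, 1 per captured RNA) per mouse. The kept nuclei shared 20 barcodes between mice, of 26677 distinct ones. The nuclei also included a striatal-like class of 1778 nuclei and a dentate granule-like class of 139, so the dissected tissue held more than neocortex. Levels are given as CPM, counts scaled to a common library size, with TMM factors in bulk and without them in nuclei. In bulk, control mice 3 and 4 differed most from the other controls (chi-square per degree of freedom 15.1 to 26.7). In nuclei, CUS mice 1 and 2 differed from each other and from the other CUS mice by 27.1 to 39.7. CUS mice 3 and 4 differed by 5.76, and pairs of control mice by 5.78 to 33.5.

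Promoters are shown for Epha10, the 1 member called in bulk, and for Ephb6 and Unc5b, whose control and CUS mice did not overlap. Each is the 250 bases before the RefSeq start on GRCm38.p6, read 5′ to 3′ on the strand of the gene. Capitals mark GC boxes (GGGCGG on either strand) and CCAAT boxes (CCAAT on either strand), common promoter motifs searched after the YY1 core (AANATGG on either strand), the motif of the factor the study concerned, had given no match. Epha10 lies at chr4:124881535-124881784 on the plus strand, Ephb6 at chr6:41605261-41605510 on the plus strand and Unc5b at chr10:60831582-60831831 on the minus strand. By the gene positions used in bulk, Epha10 starts at 124880899 and Ephb6 at 41605482. The Epha10 window thus lies within the gene as counted, and the Ephb6 window runs past its start.
Epha10: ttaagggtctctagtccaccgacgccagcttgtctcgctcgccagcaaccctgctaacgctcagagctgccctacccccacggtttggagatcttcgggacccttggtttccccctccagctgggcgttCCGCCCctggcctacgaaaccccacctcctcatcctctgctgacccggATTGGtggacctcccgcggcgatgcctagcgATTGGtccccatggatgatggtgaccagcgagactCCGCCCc
Ephb6: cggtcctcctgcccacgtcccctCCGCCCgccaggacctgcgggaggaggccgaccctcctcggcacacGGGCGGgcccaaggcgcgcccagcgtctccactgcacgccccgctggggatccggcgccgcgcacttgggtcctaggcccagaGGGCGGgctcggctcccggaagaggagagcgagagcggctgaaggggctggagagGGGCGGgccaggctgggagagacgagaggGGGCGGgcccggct
Unc5b: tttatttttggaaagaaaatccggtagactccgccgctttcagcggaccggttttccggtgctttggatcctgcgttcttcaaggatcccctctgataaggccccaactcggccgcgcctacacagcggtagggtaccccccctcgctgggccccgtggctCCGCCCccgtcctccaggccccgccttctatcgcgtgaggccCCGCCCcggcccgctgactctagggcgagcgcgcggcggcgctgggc

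The RefSeq table held 29 of the 33 members with 32 entries, and no entry for Dcc, Efnb3, Ntn1 and Unc5d was used. A GC box was present in 24 of the 32 entries and in 32.7% of all 32851 promoters of the same length. A CCAAT box was present in 14 of the 32 entries and in 33.8% of all promoters. The YY1 core was present in 0 of the 32 entries and in 12.4% of all promoters. The median number of CG dinucleotides was 20 in the entries of the members and 6 in all promoters. Epha10 held 2 GC boxes and 2 CCAAT boxes, Ephb6 held 5 GC boxes and Unc5b held 2.

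In bulk, edgeR's quasi-likelihood test took 18394 genes, among them 31 of the 33 members. Efna4 and Epha1 were too low to be tested. Epha10, an Eph receptor without kinase activity, was higher in CUS mice, and it was the 1 member called at a false discovery rate (FDR) of 0.05, where 3.29% of all tested genes were called, 2.13% lower and 1.16% higher. An unadjusted p under 0.05 was found for 13 of the 31 members and for 21.5% of all genes. Fold changes were below 0 for 17 of 31 members and 48.7% of all genes, and the median log2 fold change was -0.01 for the members and 0.01 for all genes. The groups did not overlap for 3 members (Ephb6, Unc5b and Unc5d), against 8.76% of all genes. In bulk nuclei, fewer nuclei of a type and less RNA per nucleus cannot be told apart.

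The call count depended on single mice. Without control mouse 3, 6 members were called lower (Epha3, Epha5, Epha6, Ntng1, Unc5c and Unc5d) and 7 higher (Efna5, Epha10, Epha4, Ephb1, Ephb2, Ephb3 and Ephb6), and 8.1% of all genes were called. Without CUS mouse 2, 4 members were called lower (Epha5, Epha6, Ntng1 and Unc5d) and Epha10 higher, and 3.32% of all genes were called. No member was called when any of the other 7 mice was left out, where 0.714% to 3.38% of all genes were called.

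Marker genes of cell types moved between the same groups. Of 22 marker lists, 4 had summed levels that did not overlap between control and CUS mice. The 6 excitatory neuron markers all lay above 0 (1 called), at 1961 to 2561 CPM in control mice and 2690 to 2795 in CUS mice. The parvalbumin interneuron list reached 407 to 455 against 466 to 528, with a median log2 fold change of 0.32. The general inhibitory neuron list went the other way, with sums that overlapped (926 to 1099 against 828 to 1039). All 4 of its tested genes lay below 0, with a median of -0.20. The striatal list reached 651 to 1043 against 1139 to 1377, although 7 of its 8 tested genes lay below 0 with a median of -0.83. The list of oligodendrocyte precursors was lower, at 357 to 428 against 297 to 354.

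Of 7 markers of mature oligodendrocytes (Mbp, Mog and others), all lay below 0 (1 called), with a median log2 fold change of -0.52 and sums of 249 to 590 in control mice and 265 to 332 in CUS mice. Among classes of over 200 nuclei, these nuclei had the highest levels of Efnb3, Ephb1, Efna1 and Unc5b. The 6 markers of newly formed oligodendrocytes (185 to 227 against 167 to 188, 2 called) and the 8 astrocyte markers (1923 to 2356 against 1798 to 2065, 2 called) were all below 0 as well. The microglia list had 4 of 8 below 0 and sums of 133 to 144 against 131 to 153. No marker of the lists named here was at 0 reads, and their part in the changes of the members was not tested.

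**Figure D1:**
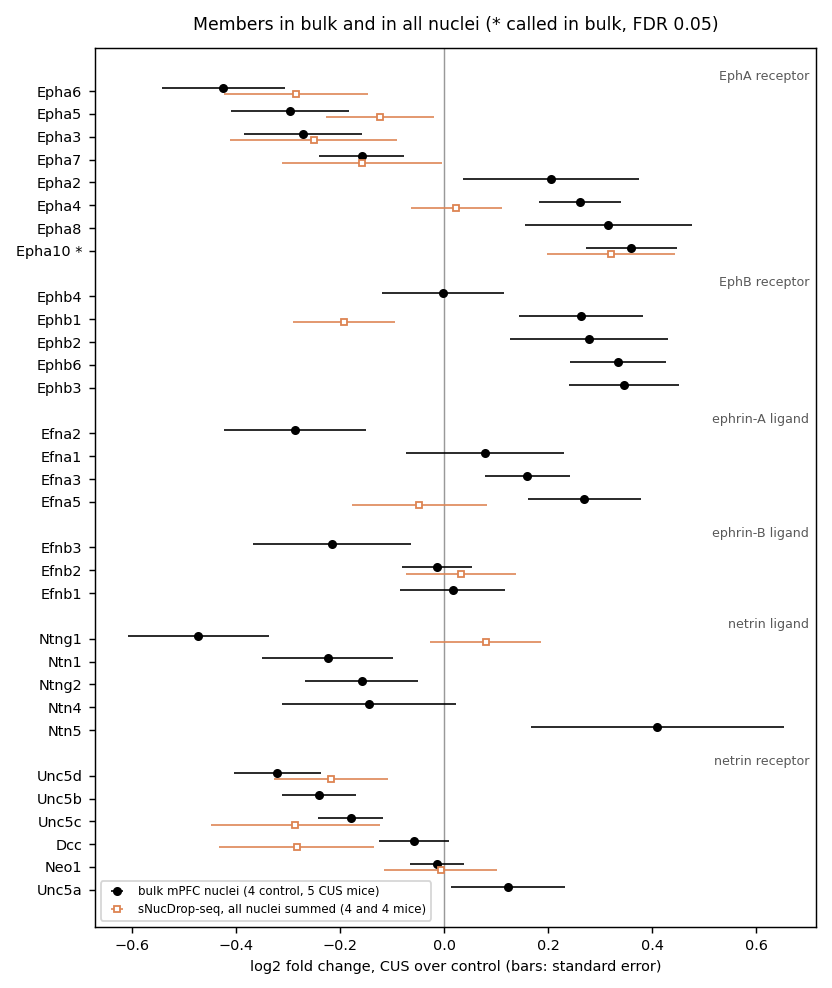
Log2 fold changes (x axis, CUS over control, bars are standard errors) of the tested members by role group, in bulk mPFC nuclei (filled circles, 4 control and 5 CUS mice) and in all sNucDrop-seq nuclei summed per mouse (open squares, 4 and 4 mice). Epha10 is the member called in bulk and lies to the right in both assays, whereas Ephb1, Ntng1, Efna5 and Efnb2 lie on opposite sides of 0.

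Among the EphA receptors, Epha10 and Epha4 were higher on average in CUS mice and Epha6 was lower. TMM-scaled CPM of Epha10 (chromosome 4, 124880899 to 124917800, plus strand, mm10) were 31.3, 38.0, 43.5 and 37.2 in control mice and 51.4, 43.2, 45.8, 48.5 and 51.7 in CUS mice. The groups touched only where control mouse 3 stood just above CUS mouse 2. The means were 37.5 ± 5.02 (SD, n = 4) and 48.1 ± 3.63 (SD, n = 5), a log2 fold change of 0.36 with a standard error (SE) of 0.09 and an edgeR adjusted p of 0.0451. Over the 14 alternative settings the adjusted p of Epha10 ran from 0.00616 to 0.124, and the call was lost in 8 of them, 7 of which left out 1 mouse (control 1, 2 or 4, or CUS 1, 3, 4 or 5).

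Epha6 (chromosome 16, 59653483 to 60605531, minus strand), a receptor of ephrin-A ligands, stood at 932, 804, 709 and 698 CPM in control mice. The CUS mice gave 534, 746, 622, 506 and 519. CUS mouse 2 lay within the control range and the other CUS mice below it, and the log2 fold change of -0.42 (SE 0.12) had an adjusted p of 0.0659. Epha4 (chromosome 1, 77367185 to 77515088, minus strand), which binds ephrins of both classes, gave 247, 248, 286 and 214 in control mice and 319, 278, 314, 295 and 286 in CUS mice. Control mouse 3 reached the CUS range and the others stayed below it, with a log2 fold change of 0.26 (SE 0.08) and an adjusted p of 0.0799. Of the other tested EphA receptors, Epha3, Epha5 and Epha7 had log2 fold changes of -0.27, -0.30 and -0.16, and Epha2 and Epha8 had 0.21 and 0.32. None of these passed the test. Epha7 was -0.10 without control mouse 1. With 1 mouse left out, Epha2 ran from 0.11 (without control mouse 2) to 0.32 (without control mouse 4) and Epha8 from 0.19 (without CUS mouse 1) to 0.48 (without control mouse 4).

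EphB receptors, which bind ephrin-B ligands and are known at excitatory synapses, lay above 0 in 4 of 5 cases, with a median log2 fold change of 0.28. No EphB receptor was called. Ephb6 (chromosome 6, 41605482 to 41620509, plus strand), a receptor with an inactive kinase, gave 90.7, 79.4, 96.4 and 69.8 CPM in control mice and 106, 97.9, 96.5, 114 and 116 in CUS mice. Every CUS mouse was above every control mouse, by as little as 96.5 over 96.4, and the log2 fold change of 0.33 (SE 0.09) had an adjusted p of 0.0634.

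Ephb3 (chromosome 16, 21204755 to 21223305, plus strand) gave 15.9, 17.2, 20.2 and 16.1 in control mice and 26.9, 18.7, 21.4, 23.2 and 20.1 in CUS mice. Control mouse 3 lay within the CUS range, and the log2 fold change was 0.35 (SE 0.11, adjusted p = 0.0859). Ephb1 (chromosome 9, 101922128 to 102354693, minus strand) gave 147, 150, 222 and 143 in control mice and 206, 179, 222, 196 and 189 in CUS mice. Here control mouse 3 stood apart from the other 3 control mice and level with the highest CUS mouse. The log2 fold change of Ephb1 was 0.26 (SE 0.12, adjusted p = 0.222) with that mouse and reached 0.43 (adjusted p = 0.00317) without it. Ephb2 likewise had a log2 fold change of 0.28 (adjusted p = 0.312) with control mouse 3 and 0.52 (adjusted p = 0.00154) without it, and Ephb4 had -0.00.

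**Figure D2:**
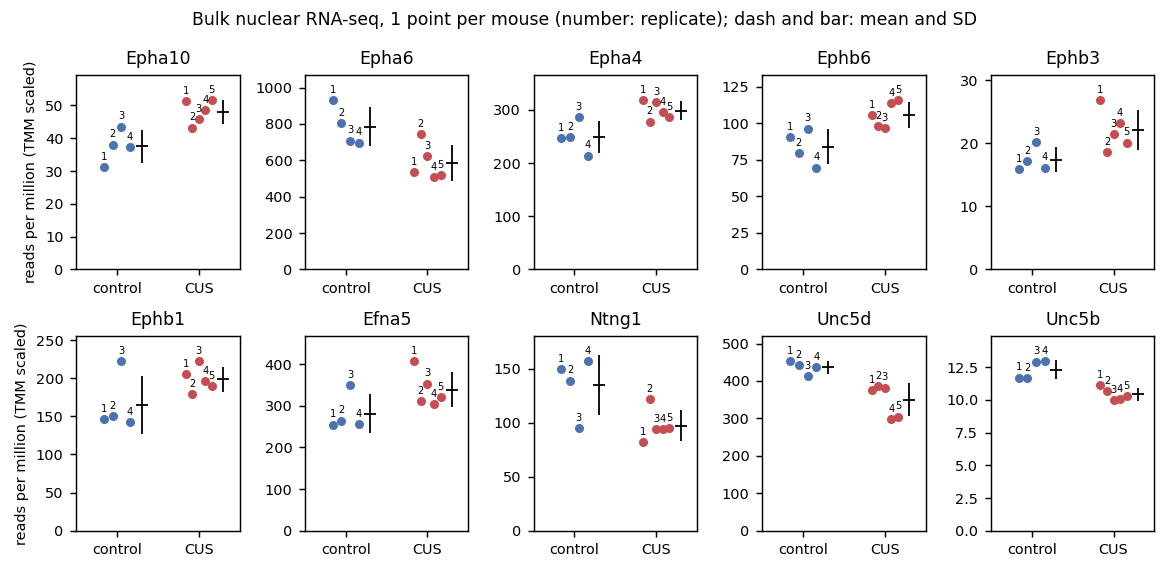
TMM-scaled CPM (y axis, from 0) of 10 members in each bulk mouse, with the replicate number above each point and the mean and SD beside each group. Ephb6, Unc5d and Unc5b show no overlap between the 4 control and 5 CUS mice, and control mouse 3 stands with the CUS mice for Ephb1, Efna5 and Ntng1.

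The ephrin ligands gave no call. Efna5 (chromosome 17, 62604184 to 62881317, minus strand), a main ligand of EphA receptors in the cortex, gave 255, 264, 350 and 256 CPM in control mice and 407, 311, 353, 303 and 321 in CUS mice. Only control mouse 3 reached the CUS range, and the log2 fold change was 0.27 (SE 0.11, adjusted p = 0.173). Efna2 (chromosome 10, 80179482 to 80190010, plus strand) stood at 2.42, 2.53, 2.32 and 2.73 in control mice and at 1.71, 2.01, 2.32, 1.92 and 2.27 in CUS mice. The lowest control mouse and the highest CUS mouse met, with a log2 fold change of -0.29 (SE 0.14, adjusted p = 0.244). Efna3 (chromosome 3, 89313899 to 89322965, minus strand) had mixed groups of 10.7, 10.3, 12.0 and 12.3 against 12.2, 11.2, 13.5, 13.3 and 13.1 (log2 fold change 0.16, SE 0.08, adjusted p = 0.279).

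The 3 ephrin-B ligands, which span the membrane, overlapped widely between the groups. Efnb3 (chromosome 11, 69554092 to 69560205, minus strand) gave 16.7, 17.7, 20.7 and 25.1 CPM in control mice and 12.3, 17.3, 15.6, 19.4 and 21.7 in CUS mice. Its log2 fold change was -0.22 (SE 0.15, adjusted p = 0.441), and it was -0.08 without control mouse 4 and -0.12 without CUS mouse 1. Efnb2 (chromosome 8, 8617434 to 8661242, minus strand) gave 89.4, 88.3, 77.9 and 90.2 against 79.7, 94.7, 81.0, 90.1 and 83.0. Both groups of Efnb2 covered the same range, and the log2 fold change was -0.01 (SE 0.07, adjusted p = 0.937). Efnb1 (chromosome X, 99136130 to 99148991, plus strand) gave 5.85, 6.74, 7.40 and 6.25 against 6.29, 6.51, 5.99, 7.52 and 6.85, with a log2 fold change of 0.02 (SE 0.10, adjusted p = 0.946). Neither value had a stable sign. Efnb2 was -0.07 without control mouse 3 and 0.02 without control mouse 4, and Efnb1 was 0.07 without control mouse 3 and -0.04 without control mouse 1.

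Netrin ligands lay below 0 in 4 of 5 cases, and none was called. Ntng1 (chromosome 3, 109780040 to 110144011, minus strand), a membrane-anchored netrin-G that binds the synaptic protein Lrrc4c, gave 150, 139, 95.1 and 157 CPM in control mice. CUS mice gave 82.2, 122, 94.5, 94.0 and 94.9. Control mouse 3 fell among the CUS mice and the other control mice stood above all of them, with a log2 fold change of -0.47 (SE 0.14) and an adjusted p of 0.0712. Without control mouse 3 the log2 fold change was -0.62 with an adjusted p of 0.00352.

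The secreted netrins were low. Ntn1 (chromosome 11, 68209364 to 68400823, minus strand), the classical ligand of Dcc, gave 18.4, 17.2, 18.2 and 25.1 in control mice and 21.4, 15.1, 17.1, 15.5 and 15.3 in CUS mice. Control mouse 4 stood above all other mice, and the log2 fold change was -0.22 (SE 0.13, adjusted p = 0.327) with it and -0.08 without it. Ntn5 (chromosome 7, 45684022 to 45694556, plus strand) gave 0.906, 1.11, 1.38 and 0.756 against 1.32, 0.907, 1.38, 1.26 and 2.00, with a log2 fold change of 0.41 (SE 0.24, adjusted p = 0.355) that was 0.24 without CUS mouse 5. Ntng2 and Ntn4 had log2 fold changes of -0.16 and -0.14, which were -0.06 and -0.28 without control mouse 3, and Ntn4 was -0.05 without control mouse 2. Ntng2 overlaps another gene, 6530402F18Rik, on the same strand.

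Among the netrin receptors, 5 of 6 lay below 0 and 2 of the 3 members without overlap were found here. Unc5d (chromosome 8, 28646717 to 29219636, minus strand), a receptor known from upper-layer neurons, gave 453, 443, 413 and 437 CPM in control mice and 375, 387, 382, 298 and 305 in CUS mice. Every CUS mouse was below every control mouse, and the log2 fold change of -0.32 (SE 0.08) had an adjusted p of 0.0579. Unc5b (chromosome 10, 60762593 to 60831581, minus strand), known from endothelial cells, gave 11.7, 11.7, 12.9 and 13.0 against 11.2, 10.6, 10.0, 10.1 and 10.3. Its groups did not overlap either, with a log2 fold change of -0.24 (SE 0.07) and an adjusted p of 0.0761.

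Unc5c (chromosome 3, 141465216 to 141834924, plus strand) gave 450, 446, 395 and 481 in control mice and 369, 408, 400, 385 and 392 in CUS mice. Control mouse 3 lay among the CUS mice, and the log2 fold change was -0.18 (SE 0.06, adjusted p = 0.121). Dcc, the receptor through which netrin-1 attracts axons, had a log2 fold change of -0.06 (SE 0.07), with 623 ± 52.5 CPM (SD, n = 4) against 599 ± 34.6 (n = 5), and it was -0.11 without control mouse 1 and 0.00 without control mouse 4. Neo1 stood at -0.01 (SE 0.05) and Unc5a at 0.12 (SE 0.11), which was 0.25 without control mouse 3 and 0.05 without control mouse 1.

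Levels were compared between genes only per length. Per kb of gene span, the highest mean level over the 9 bulk mice was that of Ephb6, with 6.41 CPM per kb, followed by Efnb3 with 3.03, Efnb2 with 1.96 and Epha4 with 1.87. Per kb of exon in the GENCODE vM21 annotation (mm10) the order was Epha6 with 128 CPM per kb, Efna5 with 77.8, Dcc with 46.3 and Unc5d with 42.1. Ephb6 ranked 1 of 33 by span and 7 by exon length, and Epha6 ranked 14 by span and 1 by exon length. Whether intronic reads were counted in bulk is not given in the sources used here, so both scales are shown.

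sNucDrop-seq gave the same genes in other mice. By the study's methods these mice came from more than 1 batch, with both conditions in each, but the labels do not say which mouse was in which, so the tests had no batch term and the absence of calls holds for such a fit. Summed over all nuclei of a mouse, 14 members passed the filter and none was called at an FDR of 0.2 by edgeR's quasi-likelihood test, the likelihood ratio test or DESeq2, where 0.0199% of all 5018 genes were called by the first. An unadjusted p under 0.05 was found for 1 member, Epha10, and for 8.01% of all genes. CPM of Epha10 were 80.7, 70.0, 82.1 and 91.5 in control mice and 112, 110, 83.1 and 101 in CUS mice. CUS mouse 3 lay within the control range and the others above it, and the log2 fold change of 0.32 (SE 0.12) had an adjusted p of 0.596.

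Of the 14 members, 10 had fold changes below 0, as had 51.1% of all genes, and their median was -0.14 against -0.00 for all genes. The groups did not overlap for 1 member, Unc5d, and for 4.8% of all genes. Unc5d gave 365, 422, 375 and 370 CPM in control mice and 272, 340, 359 and 353 in CUS mice, all below the control mice, with a log2 fold change of -0.22 (SE 0.11, adjusted p = 0.596). Epha6 gave 765, 1000.4, 873 and 853 in control mice, against 548, 795, 753 and 779 in CUS mice. CUS mice 2 and 4 lay within the control range, and the log2 fold change was -0.28 (SE 0.14, adjusted p = 0.596). Without CUS mouse 2, Dcc, Epha6, Ephb1 and Unc5c were called lower, at log2 fold changes of -0.43, -0.36, -0.25 and -0.39, and 16.2% of all genes were called. Without CUS mouse 1, the log2 fold changes of Dcc, Epha3, Epha6, Unc5c and Unc5d were -0.16, -0.09, -0.16, -0.13 and -0.12, and none was called.

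The share of striatal-like nuclei was lower on average in CUS mice. It was 9.85%, 7.33%, 8.67% and 8.42% of the nuclei in control mice and 5.03%, 8.73%, 4.21% and 2.44% in CUS mice, where CUS mouse 2 alone lay within the control range. In all nuclei, 4 of the 5 tested striatal markers were below 0 with a median log2 fold change of -0.44, and the sums of the list overlapped (954 to 1033 CPM in control mice and 693 to 1207 in CUS mice). The 5 inhibitory neuron markers were all below 0 as well, with sums of 975 to 1145 against 803 to 944 that did not overlap. The choroid plexus list did not overlap either, at 7.74 to 16.9 against 18.3 to 236. The part of these markers in the changes of the members was not tested. With the striatal-like nuclei left out, a choice made after the values had been seen, 10 of 14 members were again below 0 with a median of -0.13, and none was called (0.0199% of all genes were). Dcc then stood at -0.22, Ephb1 at -0.11, Epha6 at -0.29, Unc5c at -0.30 and Unc5d at -0.25. With CUS mouse 2 left out as well, Dcc, Epha6, Unc5c and Unc5d were called lower, Ephb1 was not (adjusted p = 0.453), and 13.4% of all genes were called.

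Of the 14 members tested in both, 10 had the same sign (71.4%), as had 63.3% of the 4987 genes tested in both. Epha3, Epha5, Epha6, Epha7, Unc5c, Unc5d, Dcc and Neo1 were below 0 in both and Epha4 and Epha10 above 0 in both. The count includes Neo1, at -0.01 in both, which was 0.01 in bulk without control mouse 4 and 0.05 in nuclei without control mouse 2. It also includes Epha4, at 0.02 in nuclei, which was -0.0035 there without CUS mouse 4. Ephb1 stood at 0.26 in bulk and -0.19 in nuclei, and Ntng1 at -0.47 in bulk and 0.08 in nuclei. In nuclei Ntng1 was 0.17 without CUS mouse 1 and 0.01 without CUS mouse 3. Efna5 stood at 0.27 in bulk and -0.05 in nuclei (0.07 without CUS mouse 1), and Efnb2 at -0.01 and 0.03. The log2 difference in bulk minus that in nuclei was set against an exact permutation of the mice within each assay, two-sided, over 14 members. The permutation supposes no change in either assay, so a change in a single assay can also give a small p. Whether the changes in the assays were equal was not tested. The exact permutation gave p = 0.0158 for Ephb1 and p = 0.0300 for Ntng1, and both had an adjusted p of 0.210 over the 14 members. The assays differ in region, age and method, and by the study's methods in the behavioral tests and time before tissue was taken. These cannot be told apart.

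Gene span moved with these values. In all nuclei, 10 of 11 members with spans over 150 kb were below 0, as were 78.2% of all 984 tested genes of such span. None of the 3 shorter tested members (Epha4, Epha10 and Efnb2) was below 0, against 57.9% of genes between 30 and 150 kb. In bulk, 10 of 13 members over 150 kb were below 0 (58.7% of all genes of that span), 4 of 7 between 30 and 150 kb (60.8%) and 3 of 11 under 30 kb (40%). The median log2 fold change of all genes over 150 kb was -0.10 in nuclei and -0.04 in bulk, and for the members it was -0.19 and -0.18. The span limits were chosen after the values had been seen, and the part of span in the changes of the members was not tested.

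**Figure D3:**
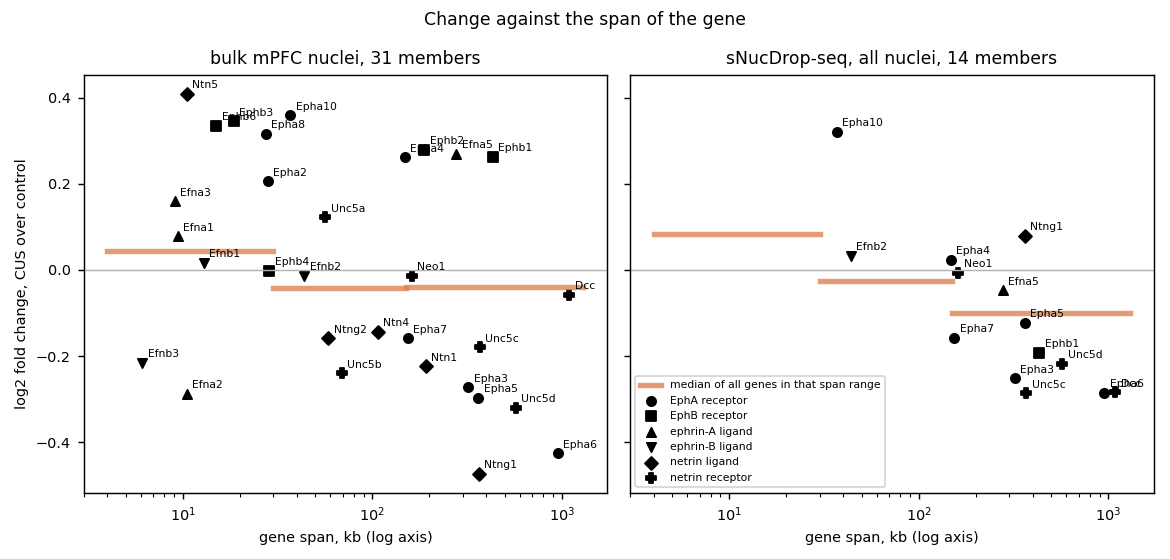
Log2 fold change (y axis, CUS over control) against gene span in kb (x axis, log scale) for 31 members in bulk and 14 in all nuclei, with marker shapes for role groups and bars for the median of all genes in each of 3 span ranges. The members with long spans lie mostly below 0 in both panels, with Efna5, Ephb1 and Ephb2 above 0 in bulk and Ntng1 in nuclei as exceptions, and the bars of all genes fall with span in the nuclei.

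To describe the levels by class, nuclei were clustered without the members among the genes used, and levels were taken in 26 classes of over 200 nuclei. A class is called X-like where markers of X define it and otherwise after a leading gene. Each level is the mean of CPM over 8 mice with its SD. No test was made, since the 2 conditions were pooled for a description. Free RNA in the droplets was not estimated, and Slc17a7, a gene of excitatory neurons, stood at 22.8 to 136 CPM in the glial classes of this size, so low levels on few UMIs cannot be told apart from background. The Fyb2-led class, 299 nuclei led by Fyb2, Ntng1, Ankfn1, Sgcd and Reln, had the highest level of 9 of the 33 members, Oligo_Opalin-like nuclei of 4, and astrocyte-like and Slc17a6-led nuclei of 3 each. Some of these leads were weak. Epha3, Epha10 and Neo1 led in the Fyb2-led class in 4 of 8 mice, and Epha1 led there on 7 UMIs. Ntn5 led in Slc17a6-led nuclei on 13 UMIs. With coarser clustering at resolution 0.6 the Fyb2-led class was no longer separate, and 13 of the 18 members described below kept their leading class. Nefm-led nuclei led for Efnb1 and Efna4 on 6 and 2 UMIs, and that class held the excitatory marker Slc17a7 at 240.6 CPM and the inhibitory markers Gad1 and Gad2 together at 299.7.

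Epha6 was highest in the Fyb2-led class at 2552 ± 294 CPM, close to 2255 ± 390 in Ndst4-led nuclei, and lowest in claustrum-like nuclei at 31.9 ± 15.7. It led in 6 of 8 mice, and the first and second class differed by less than their spread. Epha5 was highest in the same class in all 8 mice, at 1547 ± 115 against 1039 ± 91.2 in Ctgf-led nuclei. Epha4 was highest in Ex_L4-like nuclei at 547 ± 49.5, ahead of Slc17a6-led nuclei at 461 ± 228, which overlapped it. Before division by length, Epha10 stood at 242 ± 47.5 in the Fyb2-led class. Per kb of span it was above both long receptors there, with 6.57 CPM per kb, against 4.27 for Epha5 and 2.68 for Epha6. Levels per kb of exon are not given by class. In bulk the order depended on the scale, with Epha10 at rank 9 by span and 17 by exon length, and Epha6 at 14 and 1.

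EphB receptors were spread differently. Ephb1 was highest in Oligo_Opalin-like nuclei, the mature oligodendrocytes, at 194 ± 63.1 CPM, followed by Ex_L6-like nuclei at 146 ± 14.2, and it led there in 7 of 8 mice. Ephb6 was highest in Ex_L6-like nuclei at 91.4 ± 12.4, close to 78.0 ± 24.7 in Ex_L5/6-like nuclei. Ephb2 stood at 61.2 ± 36.7 in Slc17a6-led nuclei on 50 UMIs, and its order among the leading classes was not resolved by the spread.

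Efna5, a ligand of several EphA receptors, peaked with Epha4 in Ex_L4-like nuclei at 399 ± 47.7 CPM, and led there in 7 of 8 mice. Ex_L5/6-like nuclei followed at 287 ± 46.5. Efna1 reached 28.8 ± 19.5 in Oligo_Opalin-like nuclei on 20 UMIs, and Efna3 had 23.7 ± 13.3 in the highest class, claustrum-like nuclei, and 15.2 in the median class. Efnb3 was highest in Oligo_Opalin-like nuclei at 258 ± 115, well above 74.5 ± 53.7 in Pbx3-led nuclei, and led in 7 of 8 mice. Efnb2 was level across Slc17a6-led (82.3 ± 30.5) and striatal-like (81.3 ± 15.4) nuclei.

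The netrin-G genes differed widely between classes. Ntng1 reached 3891 ± 523 CPM in the Fyb2-led class and 1501 ± 258 in Angpt1-led nuclei, against 90.3 in the median class and 13.9 ± 5.74 in Ex_L6-like nuclei. Ntng2 reached 448 ± 136 in claustrum-like nuclei, against 87.9 ± 67.8 in Angpt1-led nuclei and 23.1 in the median class. Both led in their class in all 8 mice. Ntn1 was highest in OPC-like nuclei, the precursors of oligodendrocytes, at 68.8 ± 35 on 39 UMIs, with striatal-like nuclei second at 22.0 ± 10.0.

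Receptors of netrin differed in class from each other. Dcc was highest in Tshz2-led nuclei at 2410 ± 446 CPM, ahead of striatal-like nuclei at 1599 ± 292, and led in 7 of 8 mice. Unc5c was highest in Inh_Ndnf-like interneurons at 1759 ± 437 in all 8 mice, with claustrum-like nuclei at 1080 ± 220. Unc5d was highest in the Fyb2-led class at 1562 ± 180 in all 8 mice, and next in Ex_L4-like nuclei at 684 ± 106. Unc5b, which is not among the 3 highest of its group, reached 117 ± 57.0 in Oligo_Opalin-like nuclei on 116 UMIs and at most 13.5 ± 17.8 in any other class of this size.

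**Figure D4:**
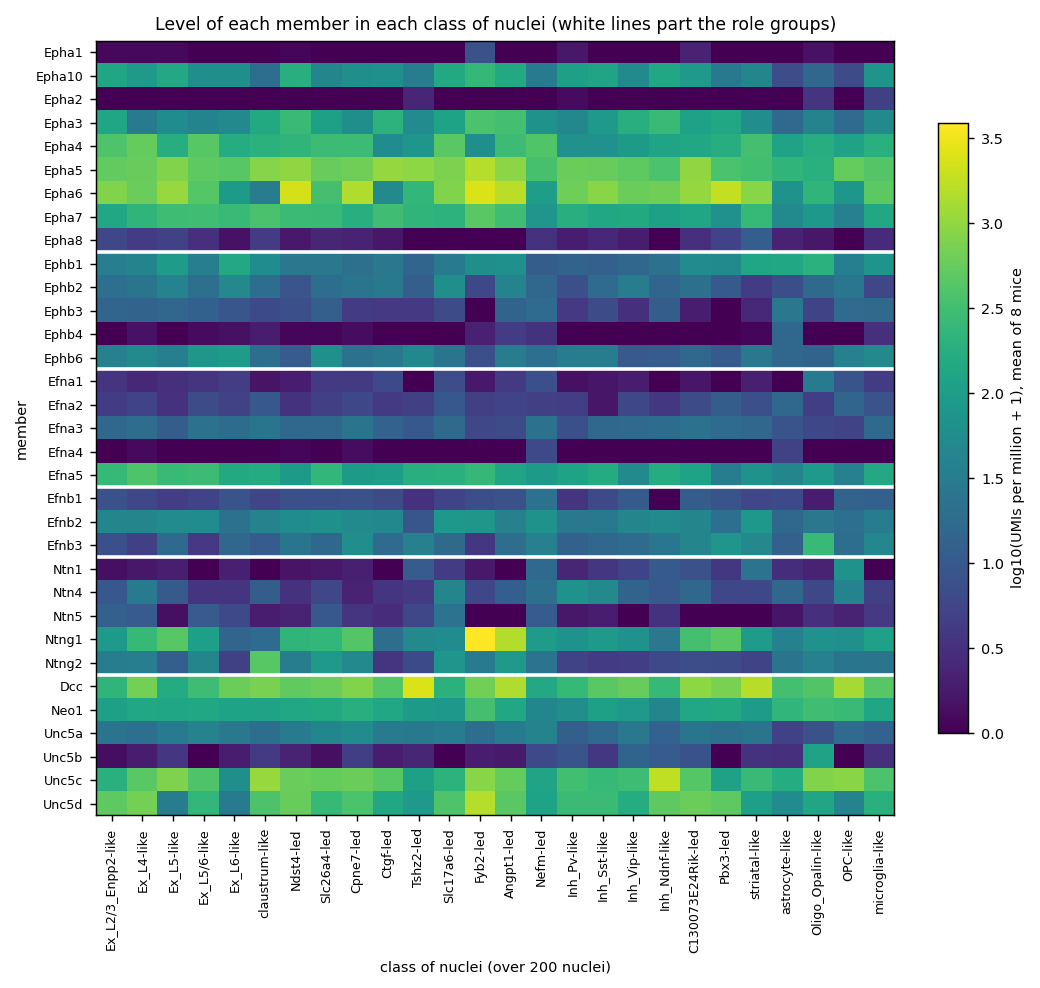
Mean level of each of the 33 members (rows, by role group) in each of 26 classes of nuclei (columns), as log10 of CPM plus 1 over 8 mice. Ntng1 stands out in the Fyb2-led and Angpt1-led columns, Ntng2 in claustrum-like nuclei, and Efnb3 and Unc5b in Oligo_Opalin-like nuclei.

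Within classes, 21 members passed the filter in at least 1 class, which gave 329 pairs of member and class. None was called at an FDR of 0.2 by edgeR's quasi-likelihood test, where 0.108% of all 121342 pairs of gene and class were called. DESeq2 called 2 pairs and the likelihood ratio test 3. Over all genes, with all nuclei counted as one more class, DESeq2 called 106 of 126360 pairs, the likelihood ratio test 394 and the quasi-likelihood test 132. An unadjusted p under 0.05 was found for 43 pairs (13.1%), 29 lower and 14 higher, against 5.93% of all pairs. The groups did not overlap for 14 of the 329 pairs, beside 4.8% of all genes in all nuclei. The share over all pairs of gene and class is not given here. The classes come from the same 8 mice and are not separate replicates.

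The smallest adjusted p was that of Epha6 in Ex_L2/3_Enpp2-like nuclei, the upper-layer neurons. Its CPM there were 789, 1140, 909 and 955 in control mice and 577, 680, 725 and 803 in CUS mice. CUS mouse 4 lay just above control mouse 1 on this scale, and after TMM scaling the groups did not overlap. The log2 fold change was -0.46 (SE 0.14, adjusted p = 0.224), in a class where 1.08% of all genes were called. Unc5d in Ex_L4-like nuclei gave 787, 846, 733 and 734 in control mice and 556, 566, 643 and 611 in CUS mice, all below the control mice, with a log2 fold change of -0.40 (SE 0.12, adjusted p = 0.251), and 0.284% of all genes were called in that class. These are the 2 pairs that DESeq2 called, and both were also called by the likelihood ratio test, with the replicate block and without CUS mouse 2.

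Unc5c in Ndst4-led nuclei gave 600, 809, 653 and 803 in control mice and 308, 581, 585 and 386 in CUS mice. The groups did not overlap, and the log2 fold change was -0.65 (SE 0.17, adjusted p = 0.372), where 0% of all genes were called. This pair was called by the likelihood ratio test and without CUS mouse 2. Epha10 had a log2 fold change of 0.54 (SE 0.18) in Ex_L5-like nuclei, where control mice gave 133, 103, 104 and 139 and CUS mice 168, 182, 158 and 166. Its groups did not overlap there or in Ex_L5/6-like nuclei (0.81, SE 0.27), with adjusted p of 0.601 and 0.632, and 0% and 0.053% of all genes were called in these classes.

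Across classes, Unc5c was below 0 in 24 of 26, Epha5 in 21 of 26, Epha6 in 20 of 24, Epha7 in 20 of 23 and Unc5d in 19 of 23. Epha10 was above 0 in 13 of 17 classes, Ntng2 in 6 of 6 and Unc5a in 4 of 4. The classes share the same mice, and the share of all genes below 0 within them is not given here. The members named as mostly below 0 span over 150 kb, where 78.2% of all genes were below 0 in all nuclei. Epha10, Ntng2 and Unc5a span 30 to 150 kb, where 57.9% were. Epha3 gave unadjusted p under 0.05 in both directions, lower in 4 classes and higher in 2, and so did Dcc, lower in 3 and higher in 2, and Ntng1, lower in 2 and higher in 1. Whether the effect differs between those classes was not tested.

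**Figure D5:**
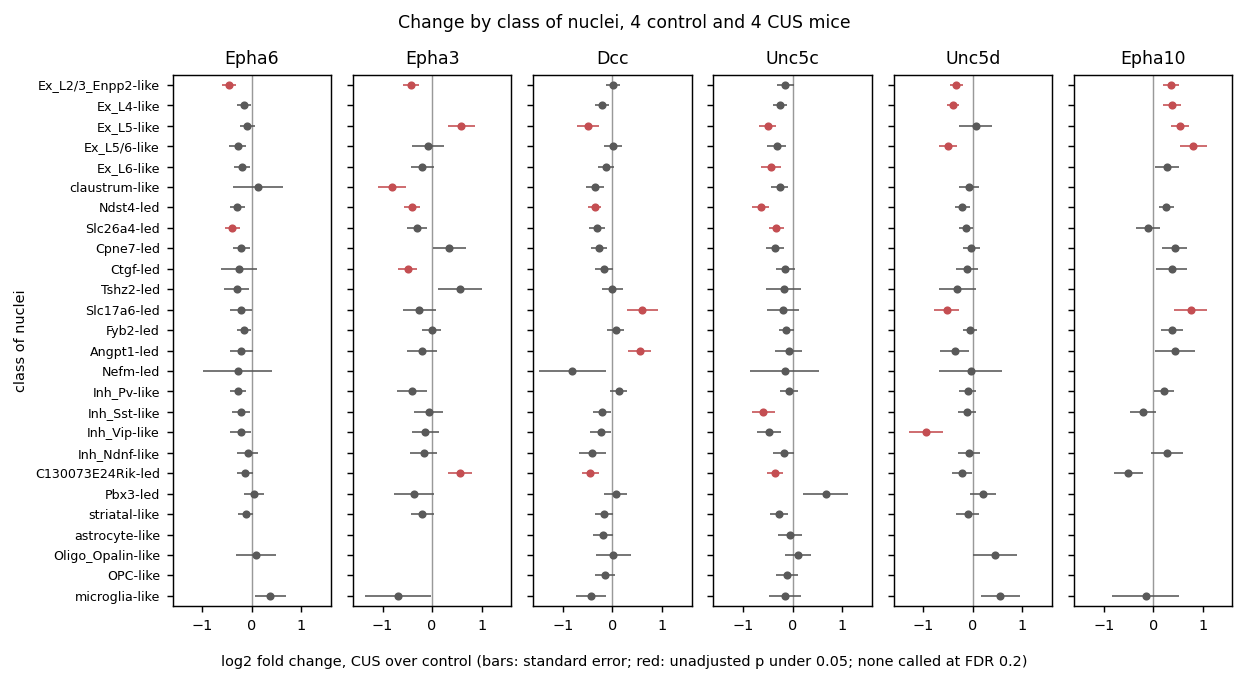
Log2 fold change (x axis, CUS over control, bars are standard errors) of 6 members in each class of nuclei in which they were tested, 4 control and 4 CUS mice. Red points have an unadjusted p under 0.05 and no point was called at an FDR of 0.2, with Epha6 and Unc5c mostly left of 0 and Epha10 mostly right of it.

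Genes that act with the members were counted from 2 lists. In bulk, none of the 30 Eph and ephrin partners was called, 10 had an unadjusted p under 0.05 (21.5% of all genes), 3 did not overlap between the groups (8.76% of all genes) and 14 were below 0 (median log2 fold change 0.02). Of the 28 netrin partners 27 were tested, of which 1 was called (3.29% of all genes), 14 had an unadjusted p under 0.05, 7 did not overlap and 15 were below 0 (median -0.05). The called gene was Ptk2, the focal adhesion kinase that binds Dcc, with 575 ± 50.5 CPM in control mice and 712 ± 21.8 in CUS mice (log2 fold change 0.31, SE 0.06, adjusted p = 0.0256). Without control mouse 3, 10 partners were called higher and 4 lower, where 8.1% of all genes were called. Without control mouse 1, 1 was called higher and 4 lower (3.38% of all genes). No partner was called without control mouse 2 or CUS mouse 3, 4 or 5, where 0.714% to 1.73% of all genes were called.

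Ablim1, an actin-binding protein, had 323 ± 46.5 against 400 ± 15.6 CPM (log2 fold change 0.31, adjusted p = 0.0619). Among the Eph partners the smallest p belonged to Kalrn, a guanine nucleotide exchange factor of dendritic spines, with 2078 ± 298 against 2608 ± 45.3 (log2 fold change 0.33, adjusted p = 0.0549), and to Crk, an adaptor protein, with 64.5 ± 2.86 against 56.9 ± 1.80 (log2 fold change -0.18, adjusted p = 0.0685). In all nuclei, 17 Eph partners and 18 netrin partners were tested and none was called, with 1 unadjusted p under 0.05 in each list. Kalrn had a log2 fold change of -0.10 there, on the other side of 0 from bulk, and Crk had -0.01. Ptk2 and Ablim1 had 0.18 and 0.09, on the same side as in bulk.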

How the data were processed

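The authors aligned reads to mm10 with STAR and deposited whole-number counts per gene, of uniquely mapped reads in bulk and of UMIs per barcode in sNucDrop-seq, without normalization. The bulk library kept strand. For sNucDrop-seq the methods name Gencode vM13 and count exonic and intronic reads, and for bulk the annotation release is not given in the sources used here. The members and lists were chosen with earlier results of these data known.

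Bulk counts were tested with edgeR 4.0.16 in R 4.3.3 (filterByExpr, TMM, quasi-likelihood, Benjamini-Hochberg over all genes). Nuclei were required to hold between 600 and 5000 genes with mitochondrial UMIs below 5%, and the 15.2% with a Scrublet score (scanpy 1.11.5) over 0.2 were removed as doublets. They were clustered in Seurat 5.3.0 on 2000 variable genes, 50 components and 20 neighbors at resolution 1, without the members. A cluster was named after a type when at least 3 of its markers were enriched 1.5-fold and 2 were among its 10 leading genes, limits set after the clusters were seen, without regard to condition. UMIs summed per mouse were tested for genes whose sum exceeded 10% of the nuclei, in all nuclei and in classes over 200 nuclei. The methods describe 2 sNucDrop-seq batches, each with 2 control and 2 CUS mice, a strong batch effect and a batch term in the test. The labels do not place each mouse in a batch, so no batch term was used here and the spread between mice includes the batch. Given in full were members called, the 3 of each role group with the smallest bulk p, and for levels by class the 3 highest of each group. P-values measure the spread between mice. The tests were checked on simulated data, with changes larger than those of the members in bulk and without a batch or a deviating mouse. The check therefore does not cover smaller changes, a batch or such a mouse. Mice of a group differed by more than counting error (chi-square per degree of freedom 3.03 to 26.7 in bulk and 5.76 to 39.7 in nuclei). Pick1 has 2 entries in the bulk tables, and the first was used. Alternatives were the likelihood ratio test, DESeq2 1.42.0, no TMM factors, other filters, a replicate block, other clusterings, each mouse left out and, added after the values were seen, all nuclei but the striatal-like class. Of the marker genes, 1 is not reported here.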

Additional observations from a re-analysis of the deposited data

Results flagged for a closer look

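In the 64 groups of 4 or 5 mice examined for members given in full or tested in all nuclei, 7 held a value far from the others, and chance flags about 1 in 20 groups. Of these, 3 were control mouse 3 of the bulk set, with 350.5 CPM of Efna5 (the next control mouse had 264), 77.9 of Efnb2 (next 88.3) and 222 of Ephb1 (next 150). Control mouse 4 had 25.1 of Ntn1 (next 18.4). In all nuclei, control mouse 2 had 743 CPM of Dcc (next 636), and CUS mouse 1 had 507 of Epha5 (next 610) and 548 of Epha6 (next 753).

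For 2 members the changes in bulk and all nuclei lay further apart than in most permutations of the mice, before correction over 14 members. The permutation supposes no change in either assay, so whether the changes were equal was not tested. The log2 difference in bulk minus that in nuclei was 0.46 for Ephb1 (exact permutation p = 0.0158) and -0.54 for Ntng1 (exact permutation p = 0.0300), and the adjusted p was 0.210 for both.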

How the results depend on the processing

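The number of members called in bulk, 1, was 7 with the likelihood ratio test, 8 with DESeq2, 3 without TMM factors and 5 without a filter on low counts, where 7.23%, 8.51%, 4.47% and 2.59% of all genes were called, and it ran from 0 to 13 with 1 mouse left out. The number of partners called, 1, was 10, 12, 8 and 4 in the same order, and 0 to 14 with 1 mouse left out. In nuclei classes, the likelihood ratio test called 3 members and 2 partners, DESeq2 called 2 members, resolution 1.5 called 1 member (141 of 132560 pairs of all genes), and clustering with the members among the variable genes called 1 member and 1 partner (116 of 125865 pairs). With 1 mouse left out, the range was 0 to 4 members and 0 to 2 partners in all nuclei, and 0 to 8 members and 0 to 11 partners in classes. The highest counts in nuclei came without CUS mouse 2, where 2276 of 129377 pairs of gene and class were called, against 132 of 126360 with all mice. The causes were not tested. No direction of the 18 members given in full was reversed for a called value, the sign of Efnb1 (-0.04 to 0.07) and Efnb2 (-0.07 to 0.02) varied without a call, and Epha10 lost its call in 8 of 14 settings.

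Control and CUS mice share replicate numbers, and the labels do not say whether these pair them. Deviations of same-numbered mice correlated at 0.02 to 0.15 in bulk and -0.45 to 0.40 in nuclei. With the replicate block, 0 members and 0 partners were called in bulk (1.29% of all genes), and 2 members and 2 partners in nuclei classes (316 of 126360 pairs, against 132 without the block). In bulk, CUS mouse 5 has no control mouse of its number, so it does not inform the contrast in the fit with the block. With CUS mouse 5 left out and no block, 0 members and 0 partners were called as well (0.768% of all genes). Whether the numbers carry the batch in nuclei was not tested.

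The leading class of the 18 members described was kept by 16 in control mice alone, 15 in CUS mice alone, 15 with the members among the variable genes and 13 at resolution 0.6, by class name. With the members among the variable genes, Dcc and Ephb2 changed in name only, since their leading clusters had the same 10 leading genes as before. Members with few UMIs (Efnb1 6, Efna1 20 in their leading class) are limited by depth.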

Other observations

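Classes under 200 nuclei were pooled over mice, with exact Poisson intervals that cover counting error only. Dentate granule-like nuclei (139 nuclei) held Epha7 at 718 CPM (95% interval 627 to 818) on 224 UMIs, above the 468 of the highest large class. Oligo_Enpp6-like nuclei (77 nuclei), which carry markers of newly formed oligodendrocytes, held Unc5c at 928 (759 to 1123) and Ephb1 at 247 (164 to 358). Endothelial-like nuclei (59 nuclei, 34 of them from CUS mouse 1) held Ntn1 at 102 (52.8 to 179) on 12 UMIs from 6 mice. Ntn1 stood at 68.8 in OPC-like nuclei and at 1.13 in the median class of over 200 nuclei. These levels rest on few UMIs, and free RNA was not estimated.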
